A study of Schizosaccharomyces pombe with 23 samples.

Results

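The ribosomal DNA (rDNA) of the fission yeast Schizosaccharomyces pombe lies at both ends of chromosome III. These ends were taken as the bins within the outer 35 kb of each end of the chromosome in the deposited tables, which count sequenced fragment ends per strand in bins of 300 bp. They hold 234 bins, 117 at each end, of 41909 bins in all. A bin's level is its count divided by the median count of the bins of chromosome III outside the ends. The 125 bins whose mean level was above 5 are called repeat bins here, 81 of them at the left end and 44 at the right end. The other 109 end bins, 36 at the left and 73 at the right, are called non-repeat bins. That repeat bins have high counts therefore follows from how they were chosen, and is given only as a description.

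Each rDNA unit of fission yeast holds the genes of the 18S, 5.8S and 28S rRNAs, which RNA polymerase I transcribes together, and a non-transcribed spacer that carries a replication origin. Close to the 3′ end of the 28S gene, the spacer holds sites for the terminator protein Reb1, which end transcription and stop replication forks that run against it. Units stand in long tandem arrays at both ends of chromosome III, while a genome reference holds only a few, so that reads from every unit fall on those few. Reb1 belongs to the same family of DNA-binding proteins as Rtf1, the protein that activates the RTS1 replication fork barrier (RTS1-RFB) used in this study.

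Polymerase usage sequencing (Pu-Seq) maps ribonucleotides left in the DNA by a mutated polymerase. The strains carried cdc6-L591G in the catalytic subunit of Pol δ, which makes most of the lagging strand, or cdc20-M630F in that of Pol ε, which makes most of the leading strand. Ribonucleotides persisted because of rnh201-RED, an RNase H2 mutation that impairs their removal, and the DNA was cut at them in vitro. Every strain had the RTS1 barrier at a site on chromosome II (Rura-ChrII RTS1::phleo) with ura4-D18, ade6-704 and leu1-32. In RFB ON strains rtf1 was expressed from the adh1 promoter (Nat:ADH1:rtf1), and in RFB OFF strains rtf1 was deleted (rtf1::Nat). Cells were in log phase in rich medium. The groups were rpn10Δ ON (3 Pol δ and 3 Pol ε libraries; Rpn10 is a regulatory subunit of the proteasome), nup132Δ ON (4 and 4; Nup132 is a nuclear pore protein), nup132Δ OFF (1 Pol δ library), WT ON (1 and 1) and WT OFF (1 Pol δ and 2 Pol ε libraries). Both deletions came in a Hygro-marked and an unmarked version. The labels do not say which libraries came from separate cultures, so p-values measure only the spread between these libraries.

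These 20 libraries held 5396348 to 38663174 counts. A further 3 of the 23 libraries, with 987, 3167 and 7167 counts, averaged fewer than 10 counts in a bin and were not used in any comparison, 1 each of nup132Δ OFF (Pol ε), WT ON (Pol δ) and WT OFF (Pol δ). Counts over the manipulated genes, relative to their flanks, went against some labels. In the 2 unmarked rpn10Δ libraries labelled ON, KK1581 (Pol δ) and KK1582 (Pol ε), rtf1 had 7.59% and 8.69% of its level in the WT ON library of the same polymerase, close to the 4.86 to 7.00% of the OFF libraries. In the libraries labelled rpn10Δ Pol ε of strains KK1894 and KK1895, rpn10 kept 52.1% and 50.4% of its WT ON level, while the other 4 rpn10Δ libraries had 0 to 0.132%. Over nup132, the 9 deletion libraries had 1.17 to 2.03%. All 3 rpn10Δ Pol ε libraries are thus open to one of these departures, and results for the group labelled rpn10Δ ON are also given without KK1894 and KK1895 or with only the Hygro-marked strains where that changes them. Values of the Hygro-marked and the unmarked deletions also lay apart in both strains, as given with the usage values, which was noticed in the data and not tested. In rpn10Δ the marker cannot be told apart from the departures in rtf1 and rpn10.

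The reference genome ASM294v3 (RefSeq) was set beside the tables to place the genes. Next to the left repeats its base content matched the counts with an offset of -10 bp, but on the inner left arm and the right arm the tables ran 1765 and 1755 bp lower. Bins of the left end are therefore given with reference features, and bins of the right end only by their distance from the repeats or by mirroring the left. The reference holds 24570 bp of rDNA at the left end, or 2.26 units of 10870 bp, and 13329 bp at the right end, or 1.23 units. At the left end transcription runs on the minus strand, with 18S genes at chrIII:1-1390 (cut short by the end of the sequence), chrIII:10419-12260 and chrIII:21289-23130, and 28S genes at chrIII:6057-9541 and chrIII:16927-20411. At the right end the genes lie on the plus strand, so that rRNA genes at both ends are transcribed toward the telomere. The left copies differed from each other at 1 of 13700 bases. The right copy differed from the left in 53 of 13340 aligned columns, 99.6% identity, with 0 of these in the 18S gene (1842 bp) or the 28S gene (3485 bp). The sources used here do not give how reads with several equal matches were placed. Left and right repeat bins are therefore 2 views of one pool of reads: a read from a unit at either end can be counted on the Watson strand at the left or on the Crick strand at the right, and the ends cannot be told apart over most of the unit.

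The stretch downstream of the 28S gene is shown because it separates the transcribed part from the spacer in which polymerase usage changes. It is read 5′ to 3′ in the direction of rRNA transcription, and the capitals mark AGGTAAGGGTAATGCAC, the longest stretch that occurs more than once in the 600 bases past the gene, which is the sequence known as the binding site of Reb1 there.

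inner left unit, chrIII:16415-16650, minus strand: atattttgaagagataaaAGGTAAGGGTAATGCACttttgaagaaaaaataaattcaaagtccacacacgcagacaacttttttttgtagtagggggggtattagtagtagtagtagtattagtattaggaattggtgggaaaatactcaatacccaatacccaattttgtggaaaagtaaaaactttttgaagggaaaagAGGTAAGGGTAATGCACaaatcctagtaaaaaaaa

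Searched on both strands without mismatch, this 17-base motif occurred 6 times in the reference, each time in the rDNA of chromosome III. Of 41969 windows of 300 bp that tile the reference, 5 held it, or 0.0119%. At the left it stood on the minus strand at chrIII:5563-5579, chrIII:5746-5762, chrIII:16433-16449 and chrIII:16616-16632, which is 478 and 295 bp past the 3′ end of the 28S gene in each unit. The copies at the right were on the plus strand, 305 and 488 bp past it.

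The spacer sequence where Pol δ usage changed over between the strands, as described with the usage values, is shown for the inner left unit, with the capitals marking runs of A and T of at least 6 bases.

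inner left unit, chrIII:14390-14629, plus strand: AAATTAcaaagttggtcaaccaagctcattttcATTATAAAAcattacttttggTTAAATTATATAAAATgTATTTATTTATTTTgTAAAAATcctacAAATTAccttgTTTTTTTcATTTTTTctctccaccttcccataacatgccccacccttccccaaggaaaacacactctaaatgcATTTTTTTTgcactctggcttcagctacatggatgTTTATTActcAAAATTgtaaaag

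This stretch of 240 bp was 70.0% A+T, against 63.9% for the reference, and 15.8% of 52461 windows of that length had at least as much.

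Repeat bins took a larger share of the Pol δ libraries than of the Pol ε libraries. They held 4.96 to 7.73% of all counts in the 10 Pol δ libraries (median 6.16%) and 3.50 to 4.60% in the 10 Pol ε libraries (median 3.98%). With libraries this deep, the 95% Wilson interval of each share was at most 0.0388 percentage points wide, which covers counting error only. At the level of the median bin of chromosome III, the repeat counts equalled 637 to 1015 kb of sequence in Pol δ libraries and 455 to 671 kb in Pol ε libraries.

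The mean level of the repeat bins was 20.0, 22.0 and 22.0 in the Pol δ libraries labelled rpn10Δ ON, and 12.2, 12.1 and 15.0 in the Pol ε libraries, the first pair of which are KK1894 and KK1895. In nup132Δ ON it was 21.7, 27.1, 26.9 and 17.0 with Pol δ and 16.7, 13.4, 16.3 and 15.0 with Pol ε, and the single nup132Δ OFF Pol δ library had 21.0. WT ON had 23.9 with Pol δ and 13.7 with Pol ε, and WT OFF had 18.9 with Pol δ and 15.3 and 17.9 with Pol ε. Every Pol δ library stood above every Pol ε library of its own strain and RFB state. Averaged over the 4 states with both polymerases, the level was 1.48-fold higher in Pol δ libraries (log2 difference 0.57; exact permutation test of the polymerase labels within states, two-sided, p = 0.000476 over 8400 arrangements, smallest possible 0.000119). Without KK1894 and KK1895 the log2 difference was 0.52 (exact permutation p = 0.000595, the smallest possible).

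**Figure D1:**
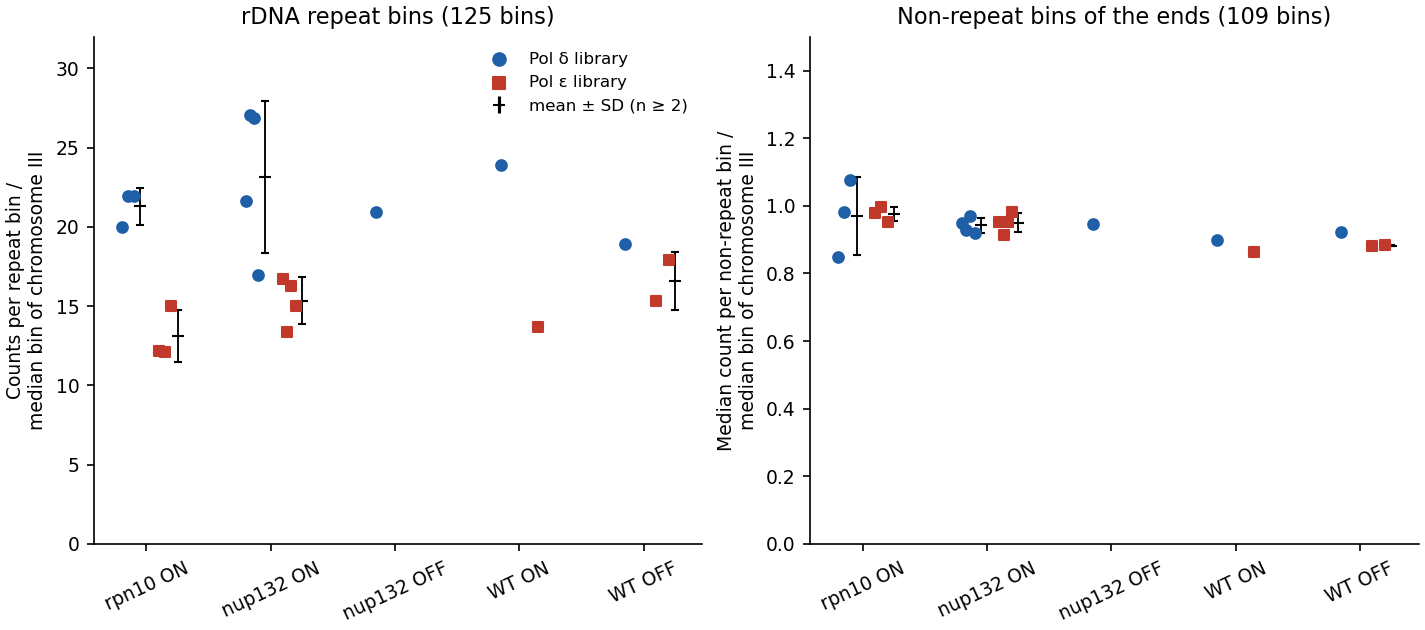
Left, mean count per repeat bin over the median bin of chromosome III (y axis, no unit) for each library, by strain and RFB state as labelled; right, the same ratio for the median non-repeat bin of the ends. Blue circles are Pol δ and red squares Pol ε libraries, with the mean ± SD where a group has at least 2. Repeat levels are 17.0 to 27.1 in Pol δ libraries and 12.1 to 17.9 in Pol ε libraries, while non-repeat levels overlap between the polymerases.

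A difference of this size was not seen in the non-repeat bins, and the ends of the other chromosomes differed in the opposite direction. The median non-repeat bin had a level of 0.847 to 1.08 in Pol δ libraries (median 0.937) and 0.863 to 0.996 in Pol ε libraries (median 0.951), and the log2 difference was 0.02 (exact permutation p = 0.486). Relative to the mean bin of chromosomes I and II in place of the median of chromosome III it was 0.19 (exact permutation p = 0.0349). At the outer 35 kb of chromosomes I and II the level was lower in Pol δ libraries, with a log2 difference of -0.40 (exact permutation p = 0.00333; a comparison added after the data were seen). No bin of chromosome III outside the ends had a mean level above 5, and 14 bins of the other chromosomes did, all on chromosome II.

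The excess of Pol δ was uneven along the unit, in segments that were tested one by one and not against each other. Over the 18S gene (17 left bins) the level was 14.8 to 23.6 in Pol δ libraries and 6.80 to 10.5 in Pol ε libraries, with no overlap and a 2.34-fold difference. Over the 28S gene (24 left bins) it was 20.4 to 34.1 with Pol δ and 12.2 to 23.5 with Pol ε, ranges that overlap, and the difference was 1.56-fold. Over the 5.8S gene and the transcribed spacers around it (6 left bins) it was 1.55-fold. In the part of the non-transcribed spacer between the usage switch and the neighbouring 18S gene (16 left bins) the level was 15.0 to 27.4 with Pol δ and 8.43 to 12.6 with Pol ε, or 1.95-fold. In the other part of the spacer, between the 28S gene and the switch (14 left bins), it was 16.9 to 30.5 with Pol δ and 19.7 to 35.5 with Pol ε, and the ratio was 0.933 (exact permutation p = 0.502). The mirrored right bins gave 2.30-fold for 18S, 1.60-fold for 28S, 1.69-fold for 5.8S, 2.08-fold for the 18S side of the spacer and 1.23-fold for its 28S side.

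With Benjamini-Hochberg adjustment over these 20 tests of level and Watson share (10 each, added after the data were seen), the 18S, 28S, 5.8S and 18S-side spacer differences in level passed at both ends (exact permutation, adjusted p = 0.000198 to 0.0120), and the 28S-side spacer did not (0.502 left, 0.0648 right). The tests of the right end largely re-use the pool of reads of the left end, so the 20 are not separate tests. The 28S-side spacer at the right also holds the 5 bins, described further below, where the reference copies differ. In these bins 5 Pol ε libraries had 0.396 to 0.446 of their count in the mirrored left bins, and the other 15 libraries 0.869 to 1.71. The level of the right spacer carries this split, and how much of its polymerase difference comes from the split was not tested. Without KK1894 and KK1895 the 5.8S difference at the left no longer passed (adjusted p = 0.118, exact permutation) and the 28S-side spacer at the right did (1.30-fold, 0.0377). That right spacer also passed without KK1895, KK1517 or KK1474 alone (exact permutation, adjusted p = 0.0419, 0.0476 and 0.0179).

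**Figure D2:**
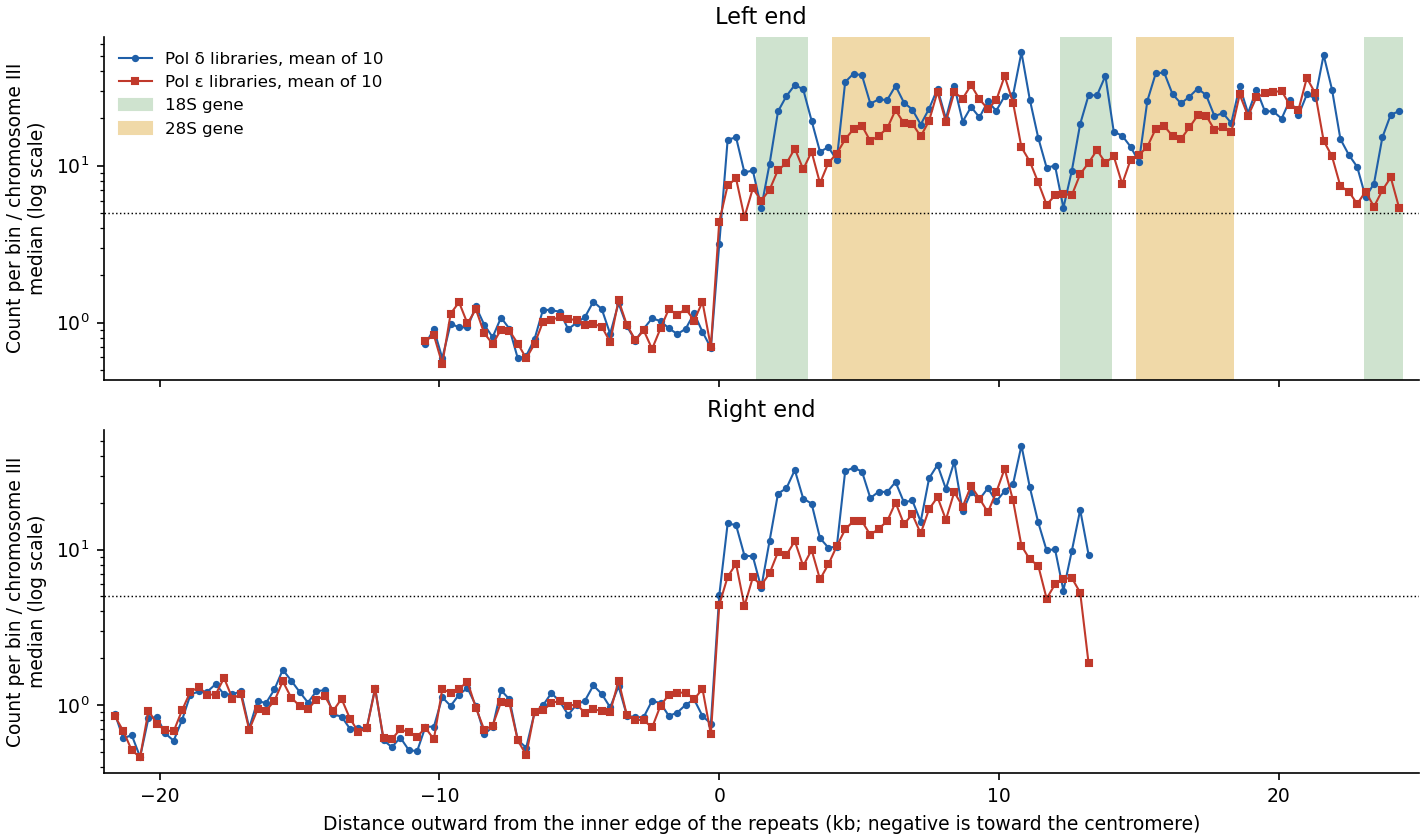
Count per 300-bp bin over the median bin of chromosome III (log y axis), averaged over 10 Pol δ (blue) and 10 Pol ε (red) libraries, against the distance in kb from the inner edge of the repeats, at the left and the right end. Shaded spans are the 18S (green) and 28S (tan) genes of the left end, and the dotted line is the limit of 5. The profiles meet near 1 outside the repeats and in the 28S-side spacer, and lie apart over the 18S genes.

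At the inner edge the level dropped over 2 bins. At the left, the innermost repeat bin (chrIII:24001-24300) had a level of 11.1, the next bin 3.79 and the one after it 0.695; at the right the same 3 bins had 10.7, 4.75 and 0.702. Only the 4.75 and 3.79 bins lay between 1.55 and the limit, and the lowest repeat bins had 5.56 and 5.69. The highest left bin, chrIII:13501-13800 in the spacer just on the 18S side of the switch, had a level of 52.8 over Pol δ libraries and 13.1 over Pol ε libraries (log2 difference 2.33 by edgeR, adjusted p = 1.784e-07). Its Pol δ values were 31.3 to 70.8, with the extremes both in nup132Δ ON, and its Pol ε values 7.82 (WT ON) to 19.6 (KK1894), so that the polymerases did not overlap. The highest right bin, in the 28S-side spacer, had 36.9 and 23.5. In the outermost left bin the level was 22.2 with Pol δ and 5.37 with Pol ε, and in the outermost right bin, whose Watson strand held too few counts to be tested, 9.27 and 1.85.

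Tested bin by bin in one edgeR fit over all 41909 bins, 93 of the 125 repeat bins were called higher in Pol δ libraries and the other 32 were not called (adjusted p under 0.05), where 25.6% of all bins were called higher and 50.8% in either direction. The limit of 5 was set on the mean over both polymerases, and 4 of the repeat bins passed it only through Pol δ, each of them called higher, while 89 of the 121 bins above 5 with each polymerase were. The median log2 difference was 0.78 over repeat bins and -0.01 over all bins. Of the 109 non-repeat bins, 54 were called higher and 7 lower, with a median of 0.21. This fit scales each library over all chromosomes and not on chromosome III alone. The largest fall in a non-repeat bin was at chrIII:24901-25200, the third bin in from the innermost repeat bin (log2 difference -0.50, adjusted p = 1.869e-05 by edgeR), and the bin at the same place beside the right repeats had -0.47.

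The strand of the counts differed between the polymerases and was mirrored between the ends. In the repeat bins of the left end, 0.731 to 0.801 of the counts of Pol δ libraries were on the Watson strand (median 0.750), against 0.530 to 0.641 of those of Pol ε libraries (median 0.589). At the right end the Watson share was 0.192 to 0.284 with Pol δ (median 0.258) and 0.372 to 0.498 with Pol ε (median 0.411). The polymerases did not overlap at either end, and the mean differences were 0.173 and -0.170 (exact permutation p = 0.000119 each, the smallest possible). Both ends draw on the same pool of reads over most of the unit, so the right end is not separate support for the left. In each of the 20 libraries used, the majority strand was Watson at the left end and Crick at the right end.

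Within the unit the strand balance turned over. Over the left 18S genes the Watson share was 0.871 to 0.949 in Pol δ libraries. In Pol ε libraries it was 0.791 and 0.802 in KK1894 and KK1895 and 0.328 in KK1582, 0.571, 0.627, 0.300 and 0.424 in nup132Δ ON, 0.160 in WT ON and 0.230 and 0.207 in WT OFF. The libraries KK1894 and KK1895 were thus the nearest to the Pol δ libraries, and the 3 WT libraries the farthest. In the 28S-side spacer the order was turned: the Watson share was 0.296 to 0.482 in Pol δ libraries, and in Pol ε libraries 0.403, 0.442 and 0.758 in rpn10Δ ON (the first pair KK1894 and KK1895), 0.612, 0.598, 0.795 and 0.673 in nup132Δ ON, 0.833 in WT ON and 0.809 and 0.820 in WT OFF. Over the left 28S genes both polymerases had most counts on Watson, 0.793 to 0.850 with Pol δ and 0.631 to 0.736 with Pol ε. The differences in Watson share between the polymerases over the 18S, 28S and 5.8S segments passed at both ends (exact permutation, adjusted p = 0.000198 for each of the 6). At the left they were 0.545, 0.101 and 0.510, with opposite signs at the right. The ends draw on the same pool of reads over these segments, so the right tests repeat the left ones with the strands exchanged and are not separate support. The spacer was divided where Pol δ usage changes strands in these same counts, so that the opposite signs of its parts, 0.590 on the 18S side and -0.347 on the 28S side at the left, follow from how they were drawn and are given as a description.

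**Figure D3:**
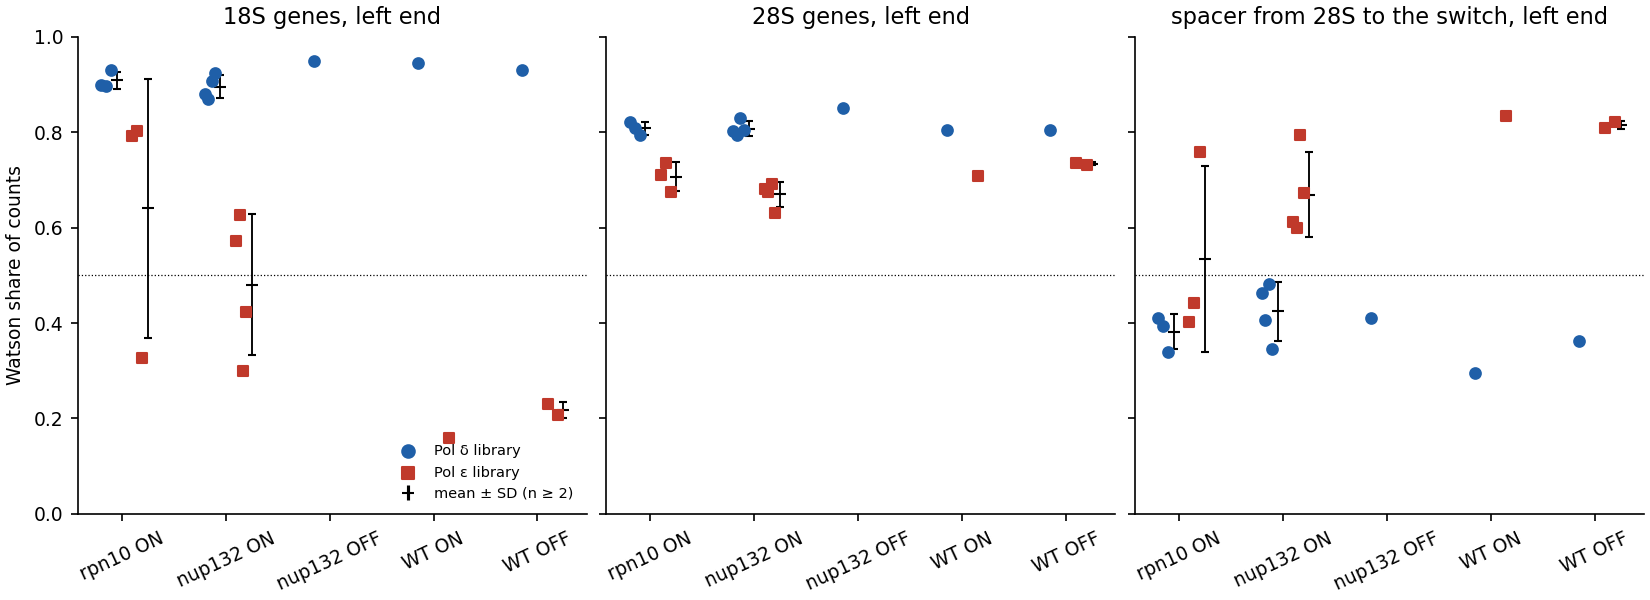
Share of counts on the Watson strand (y axis, 0 to 1) for each library in 3 segments of the left-end rDNA units, by strain and RFB state as labelled. Blue circles are Pol δ and red squares Pol ε libraries, with the mean ± SD where a group has at least 2. Pol ε libraries lie below Pol δ libraries over 18S and 28S and, apart from KK1894 and KK1895, above them in the 28S-side spacer; WT libraries are the farthest apart over 18S.

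Pol δ usage is the Pol δ signal of a strand, scaled by library totals, as a share of both polymerases' signal, and it alternated between the strands along each unit. In WT OFF it was 0.909 on Watson and 0.172 on Crick over the left 18S genes, 0.583 and 0.483 over the 28S genes, 0.264 and 0.736 in the 28S-side spacer, and 0.912 and 0.135 in the 18S-side spacer. High usage of Pol δ on Watson with low usage on Crick is the pattern of forks that move leftward, and the opposite that of forks that move rightward. At the left, leftward is also the direction of rRNA transcription. The right end gave the mirror image, for example 0.168 on Watson and 0.909 on Crick over 18S. In WT OFF the strands differed in usage by 0.537 on average over left repeat bins and 0.555 over right ones, compared with 0.410 over the rest of chromosome III.

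The strands exchanged places at 2 points of each unit. The sharp exchange, from Pol δ on Watson to Pol δ on Crick going inward at the left end, lay in the spacer: the strands had equal usage in WT OFF at position 3648 of the outer and 14510 of the inner left unit, 9.94 kb from the inner edge of the repeats in the inner unit and 9.94 kb from it at the right end. In the other groups it was at 14620 in rpn10Δ ON, 14550 in nup132Δ ON and 14475 in WT ON, all within 1 bin. The return was gradual and lay within the 28S gene, 1.61 kb upstream of its 3′ end in WT OFF (position 18538) and 1.63 kb in WT ON (18556). It came at 0.967 kb in rpn10Δ ON and 1.00 kb in nup132Δ ON, that is 0.66 and 0.63 kb nearer to the 3′ end than in WT ON. These shifts were not distinguishable from the spread between libraries (exact permutation p = 0.562 over 16 arrangements and 0.400 over 25; smallest possible 0.0625 and 0.0400; a comparison added after the data were seen). The position depended on the libraries, and lay at 0.132 to 1.12 kb in rpn10Δ ON and 0.289 to 1.09 kb in nup132Δ ON when 1 library was left out, the lowest values without KK1582 and without KK1524. In both strains the departure from WT ON was larger in the Hygro-marked deletions. These gave -0.598 kb in rpn10Δ ON, that is, in the spacer past the gene, and 0.297 kb in nup132Δ ON, while the unmarked deletions gave 1.41 and 1.18 kb. Without KK1894 and KK1895 the position in rpn10Δ ON was 1.30 kb. WT ON minus WT OFF was 0.02 kb (exact permutation p = 1.00, smallest possible 0.167).

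**Figure D4:**
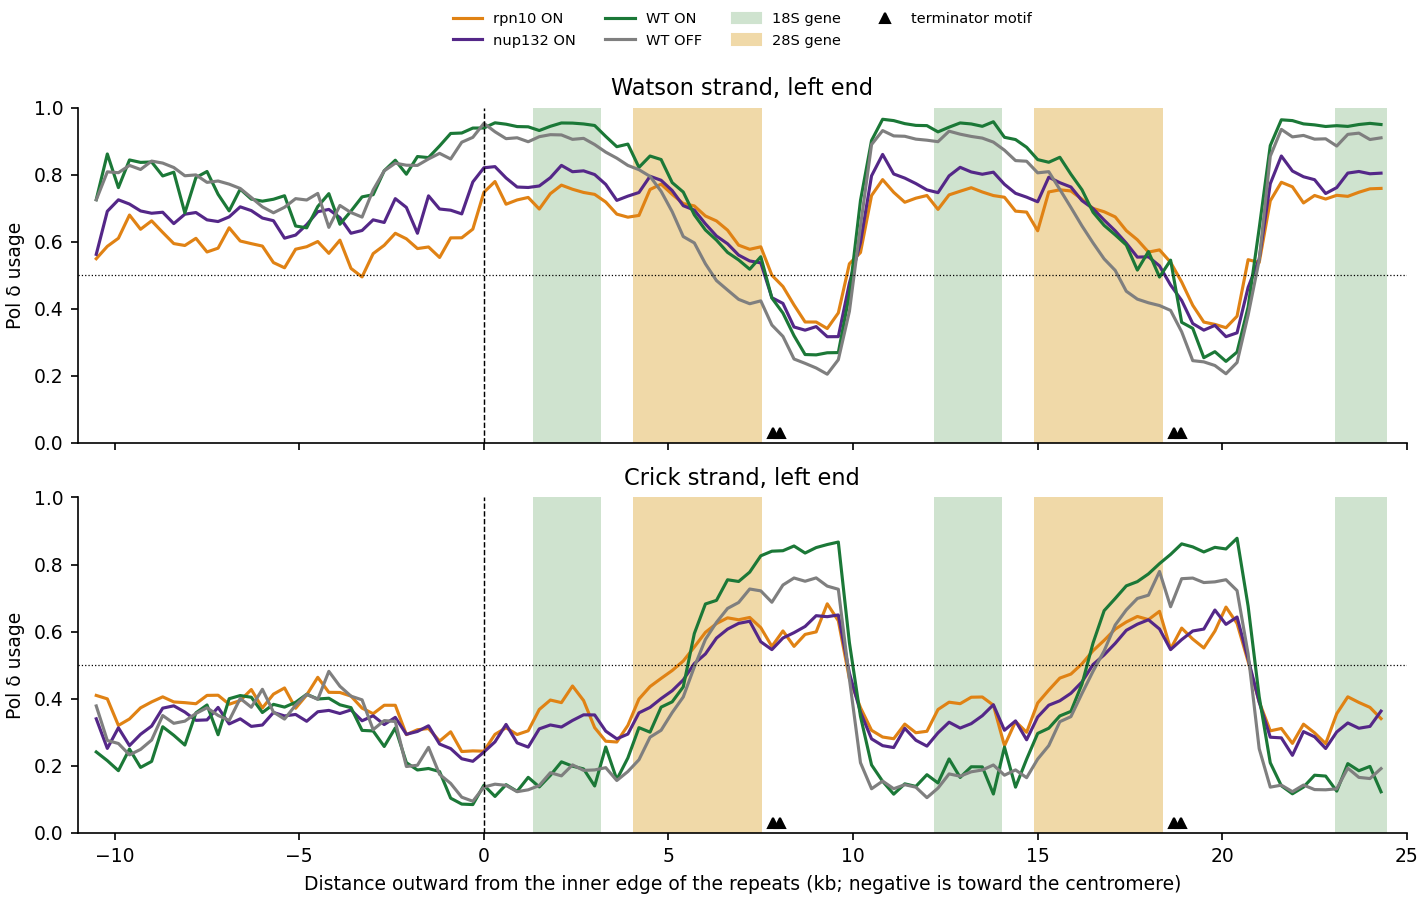
Pol δ usage (y axis, 0 to 1) per 300-bp bin on the Watson strand (top) and the Crick strand (bottom) of the left end, against the distance in kb outward from the inner edge of the repeats (dashed line), for rpn10Δ ON, nup132Δ ON, WT ON and WT OFF as labelled. Shaded spans are the 18S (green) and 28S (tan) genes, and triangles the terminator motif. Watson usage drops and Crick usage rises from the 28S gene outward until the sharp exchange near 10 kb, and the pattern repeats in the outer unit; both mutant groups lie nearer to 0.5 than WT along most of it.

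The strands differed less in Pol δ usage in the mutants than in WT, most in the Hygro-marked deletions, in the rDNA as elsewhere on chromosome III; this is a description of the group values, with 1 WT ON library of each polymerase. The mean difference in usage between the strands over left repeat bins was 0.278 in rpn10Δ ON, 0.340 in nup132Δ ON, 0.559 in WT ON and 0.537 in WT OFF, and over right repeat bins 0.280, 0.348, 0.579 and 0.555. Over the rest of chromosome III the same measure was 0.188, 0.262, 0.430 and 0.410, so the order of the groups was the same there. With the Hygro-marked deletions alone it was 0.144 in rpn10Δ ON and 0.253 in nup132Δ ON over left repeat bins, and with the unmarked deletions alone 0.490 and 0.431. Over the rest of chromosome III the Hygro-marked deletions gave 0.113 and 0.203 and the unmarked ones 0.361 and 0.325. The Hygro-marked rpn10Δ value rests on KK1894 and KK1895, and without these libraries the rpn10Δ ON value was 0.449 over left and 0.456 over right repeat bins and 0.339 over the rest of the chromosome. Each unmarked or reduced set thus lay between the Hygro-marked deletions and WT. Over 18S, with all libraries, usage on Watson and Crick at the left was 0.749 and 0.388 in rpn10Δ ON, 0.806 and 0.326 in nup132Δ ON and 0.951 and 0.177 in WT ON.

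Tested per bin strand in edgeR as the interaction of polymerase with strain, 0 of the 467 bin strands of the ends were called for nup132Δ ON against WT ON, where 0% of all 83811 bin strands were called, although 81 repeat and 30 non-repeat bin strands had an unadjusted p under 0.05 and DESeq2 called 22 (1.38% of all by DESeq2). For rpn10Δ ON against WT ON, edgeR called 0 of 467 (0.00477% of all), with 99 repeat and 69 non-repeat bin strands at unadjusted p under 0.05, and DESeq2 called 102 (17.7% of all). The rpn10Δ count depended on which libraries were used. With only the Hygro-marked rpn10Δ strains, edgeR called 235 of 467 (49.1% of all), and without KK1582 alone 224 (46.4%), while without KK1894 and KK1895 it called 0. Because the fit shares 1 estimate of the spread, these choices also moved the nup132Δ count, to 78, 72 and 62 of 467, against 14.2%, 12.3% and 10.7% of all bin strands. With only the Hygro-marked deletions of both strains, edgeR called 228 of 467 for nup132Δ ON (43.8% of all) and 292 for rpn10Δ ON (59.3% of all). With only the unmarked ones it called 2 of 468 (1.85% of all) and 0 (0.192% of all), where the single unmarked rpn10Δ library of each polymerase was assumed to vary like the other groups. The share called at the ends was above that of all bin strands by DESeq2 for nup132Δ ON (4.71%) and rpn10Δ ON (21.8%). By edgeR it was also above with only the Hygro-marked deletions of both strains (48.8% and 62.5%). The same held with only the Hygro-marked rpn10Δ strains (16.7% and 50.3%) and for nup132Δ ON without KK1894 and KK1895 (13.3%). It was below for the unmarked nup132Δ strains (0.427%) and for rpn10Δ ON with all libraries included (2.36%, against 5.39%). These differences in share were not tested. For WT ON against WT OFF, edgeR called 0 of 467 (0% of all; 1 repeat and 2 non-repeat bin strands at unadjusted p under 0.05) and DESeq2 0 (0.0119% of all).

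Usage summed over the repeat bins passed the threshold in none of 16 comparisons between strains or RFB states, 8 of which had too few libraries to pass. On Watson and Crick at the left it was 0.660 and 0.495 in rpn10Δ ON, 0.650 and 0.466 in nup132Δ ON, 0.723 and 0.526 in WT ON and 0.636 and 0.411 in WT OFF. At the right it was 0.505 and 0.681, 0.534 and 0.716, 0.523 and 0.721, and 0.452 and 0.620 in the same groups. After adjustment the lowest p was 0.667 (exact permutation), and the lowest unadjusted p was 0.0625, for rpn10Δ ON against WT ON on Watson at the left, which is the smallest that design allows. WT ON was above WT OFF by 0.0715 to 0.115 on both strands at both ends, in a design with a smallest possible p of 0.167 (exact permutation p = 0.333 for each). The comparisons with WT ON share its 2 libraries. The mean of both strands over left repeat bins was 0.577 in rpn10Δ ON, 0.558 in nup132Δ ON, 0.624 in WT ON and 0.523 in WT OFF. Over right repeat bins it was 0.593, 0.625, 0.622 and 0.536, and over the rest of chromosome III 0.498, 0.512, 0.533 and 0.536. The median left repeat bin had 0.537, 0.551, 0.568 and 0.528, and the median bin of the rest of the chromosome 0.480, 0.503, 0.520 and 0.529. The order of the mutants in the left repeats thus depended on the measure.

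The level of the repeats passed the threshold in none of 5 comparisons between strains or RFB states. Averaged over the polymerases, rpn10Δ ON minus WT ON was -0.12 on the log2 scale (exact permutation p = 0.375, smallest possible 0.0625), nup132Δ ON minus WT ON 0.05 (p = 0.880, smallest possible 0.0400), rpn10Δ ON minus nup132Δ ON -0.16 (p = 0.173), WT ON minus WT OFF 0.03 (p = 0.833, smallest possible 0.167) and, for Pol δ alone, nup132Δ ON minus nup132Δ OFF 0.12 (p = 0.80, smallest possible 0.20), all exact permutation tests. After adjustment over the 5 comparisons the lowest was p = 0.865 (exact permutation). The designs with rpn10Δ ON against WT ON, WT ON against WT OFF and nup132Δ ON against nup132Δ OFF have too few libraries to reach 0.05 at all. The Watson share of repeat bins was set side by side in 18 comparisons, of which 14 have too few libraries to reach 0.05. The other 4, rpn10Δ ON against nup132Δ ON for each polymerase and end, did not pass (exact permutation, adjusted p = 1.00 in each), with differences of -0.0245 to 0.0239. The largest difference of the 18 was between nup132Δ ON and nup132Δ OFF with Pol δ: 0.731 to 0.772 in the 4 ON libraries and 0.801 in the OFF library at the left, and 0.240 to 0.284 against 0.192 at the right.

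Bins were also tested singly. For nup132Δ ON against WT ON, edgeR called 0 of 234 end bins (0.0907% of all bins; 8 repeat and 17 non-repeat bins at unadjusted p under 0.05), and DESeq2 0 (0.532% of all). For rpn10Δ ON against nup132Δ ON it called 0 (0.0764% of all; 2 and 13 at unadjusted p), and DESeq2 0 (1.13%). For WT ON against WT OFF both called 0 (0% of all by edgeR, with 0 and 1 at unadjusted p, and 0.0286% by DESeq2), and so they did for nup132Δ ON against nup132Δ OFF with Pol δ (0% of all by either, with 0 and 1 at unadjusted p by edgeR). For rpn10Δ ON against WT ON it called 3 end bins, each non-repeat and higher, where 2.15% of all bins were called and 1.40% as higher. The first, chrIII:26401-26700, overlaps a long terminal repeat of a retrotransposon (chrIII:26343-26675). Its level was 1.15, 1.17 and 1.22 in rpn10Δ ON Pol δ libraries and 1.19, 1.20 and 0.953 in Pol ε libraries, against 0.832 and 0.734 in WT ON (log2 difference 0.63, adjusted p = 0.0292 by edgeR). The other bins, at the right end, had log2 differences of 0.63 and 0.62 (adjusted p = 0.0336 and 0.0173 by edgeR). Without KK1894 and KK1895 edgeR called 0 of 234, and DESeq2 with all libraries called 9 (4.4% of all).

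One stretch of spacer behaved differently between the ends. In the reference, 32 of the 53 differing columns between the right and the left copy fall in 1221 aligned columns of the 28S-side spacer (left chrIII:15600-16797, 97.4% identity). The following lines show where the right copy is longer than the left; the capitals mark the 8 of 60 aligned columns of the right copy that have no partner in the left.

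left copy, chrIII:16298-16349, plus strand: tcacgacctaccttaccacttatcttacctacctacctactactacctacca
right copy, chrIII:2447784-2447843, minus strand: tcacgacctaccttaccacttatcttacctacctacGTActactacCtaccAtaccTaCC

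Reads that cover a differing column of this stretch can match 1 copy better than the other, and reads without one match both. How many reads cover such a column was not examined. The count in the 5 right bins of the stretch was divided by the count in the mirrored bins of the inner left unit. The same stretch of the outer left unit was not counted, so a ratio of 1 does not stand for equal numbers of right and left reads. The ratio was 0.869, 0.939 and 1.18 in rpn10Δ ON Pol δ libraries and 0.417 (KK1582), 0.955 (KK1894) and 1.18 (KK1895) in Pol ε libraries. In nup132Δ ON it was 0.986, 1.04, 1.23 and 1.25 with Pol δ and 0.396, 0.424, 0.425 and 0.446 with Pol ε, and in the nup132Δ OFF Pol δ library 0.908. WT ON had 1.06 with Pol δ and 1.10 with Pol ε, and WT OFF 1.70 with Pol δ and 1.36 and 1.71 with Pol ε. The 4 nup132Δ ON Pol ε libraries and KK1582 thus lay at 0.396 to 0.446, and the other 15 libraries at 0.869 to 1.71. Over the other 39 mirrored bins the same 5 libraries had 0.791 to 0.814 and the other 15 had 0.876 to 0.962. This split was noticed in the data and was not tested. All 5 libraries on the low side were Pol ε libraries of deletion strains. KK1894 and KK1895, the rpn10Δ Pol ε libraries that kept rpn10 counts, lay with the other 15, as did the WT Pol ε libraries. Taken alone, neither the polymerase, the strain nor the RFB state as labelled divides the libraries in this way.

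**Figure D5:**
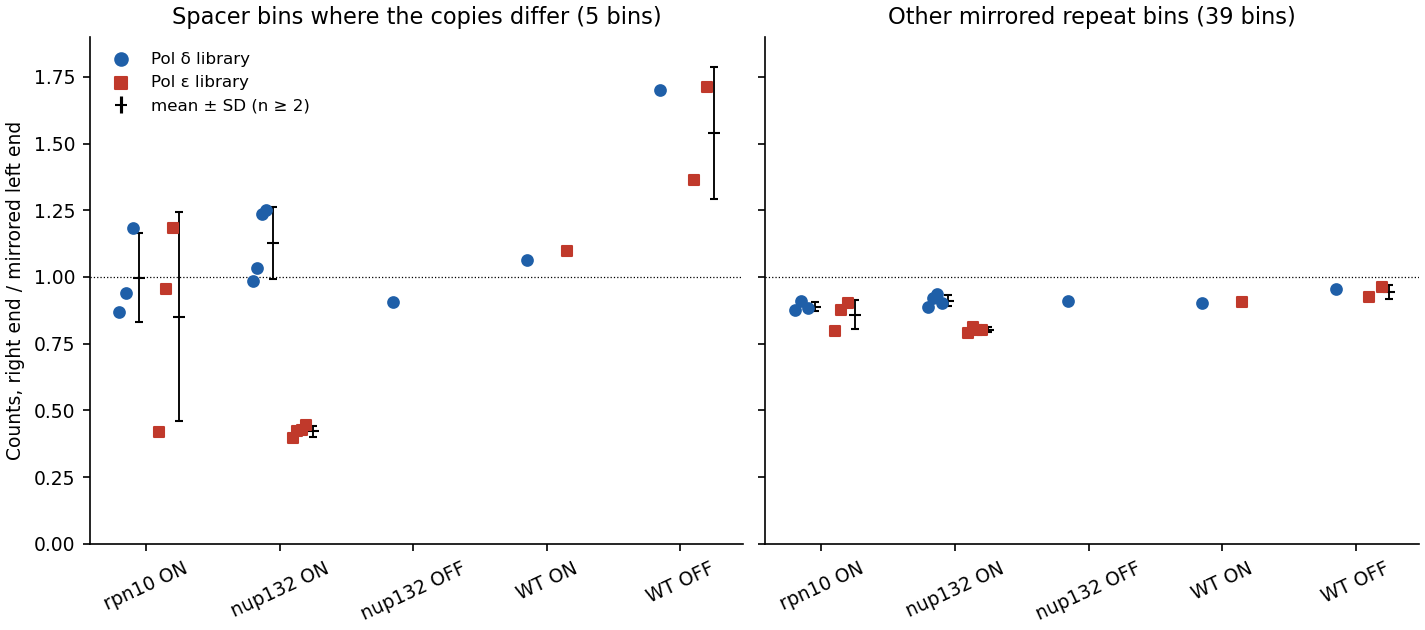
Count at the right end divided by the count in the mirrored bins of the left end (y axis, no unit) for each library, in the 5 spacer bins where the reference copies differ (left) and the other 39 mirrored repeat bins (right), by strain and RFB state as labelled. Blue circles are Pol δ and red squares Pol ε libraries, with the mean ± SD where a group has at least 2. In the spacer bins, mirrored onto the inner left unit only, 5 Pol ε libraries lie at 0.396 to 0.446 and the other 15 libraries at 0.869 to 1.71.

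Usage in the right spacer carries this split. In the 28S-side spacer at the right, usage on Watson and Crick was 0.778 and 0.585 in nup132Δ ON, a mean of 0.682 over the strands, while the mirrored left segment had 0.363 and 0.606, a mean of 0.485. In WT ON the right segment had 0.848 and 0.322, and the left one 0.326 and 0.852. Without the 17 repeat bins that this stretch covers at both ends, the level difference between the polymerases was 0.69 on the log2 scale, and no comparison between strains or RFB states passed (sign changes are given with the processing).

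The non-repeat bins of the left end continued the division of the neighbouring repeats. They include the edge bin chrIII:24301-24600, with a level of 3.79, and the reference rDNA runs to position 24570. Those of the right end include the edge bin with a level of 4.75. Usage and Watson shares summed over the non-repeat bins thus hold some reads from the edge of the repeats. Going inward from the edge, usage in WT OFF was 0.911 on Watson and 0.0942 on Crick in the bin chrIII:24601-24900, the lowest value of any non-repeat bin strand. Over all 36 bins, with all libraries, usage on Watson was 0.599 in rpn10Δ ON, 0.685 in nup132Δ ON, 0.788 in WT ON and 0.792 in WT OFF, and on Crick 0.355, 0.308, 0.266 and 0.288. The rpn10Δ ON values rest on KK1894 and KK1895, whose Watson shares here were 0.544 and 0.538, against 0.248 in KK1582 and 0.216 to 0.230 in the WT Pol ε libraries. Without them usage in rpn10Δ ON was 0.724 on Watson and 0.287 on Crick. Hygro-marked nup132Δ ON strains had 0.642 and 0.347, and unmarked ones 0.733 and 0.275. At the right end usage summed over the bins was higher on Crick and the strands were less divided, with 0.468, 0.444, 0.420 and 0.439 on Watson and 0.534, 0.594, 0.637 and 0.648 on Crick over its 73 bins. Per strand, edgeR called all 36 left bins higher on Watson and lower on Crick in Pol δ libraries, where 40.8% of all bin strands were called higher and 41.7% lower, 82.4% in all. The 73 right bins went both ways, with 23 higher and 34 lower on Watson and 44 higher and 14 lower on Crick. In left repeat bins it called 57 higher and 10 lower of 81 on Watson, and 26 higher and 48 lower on Crick.

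The single-copy genes next to the left repeats are SPCP20C8.01C (chrIII:28298-29423, minus strand) and SPCP20C8.02C (chrIII:30561-31520, minus strand), with mean levels of 1.02 and 0.825. The non-coding RNA genes SPNCRNA.1094 and SPNCRNA.1095 (chrIII:23658-23889 and chrIII:23919-24438) lie inside the last repeat copy, at 11.7 and 11.1. The level of the non-repeat bins was 0.10 higher on the log2 scale in nup132Δ ON than in WT ON, with each of the 4 Pol δ and 4 Pol ε libraries (0.921 to 0.970 and 0.915 to 0.983) above the WT ON library of its polymerase (0.899 and 0.863). That is the most extreme of 25 arrangements (exact permutation p = 0.0400) and did not pass after adjustment over 5 comparisons (p = 0.20, exact permutation). In rpn10Δ ON the levels were 0.847, 0.982 and 1.08 with Pol δ and 0.979, 0.996 and 0.953 with Pol ε, a log2 difference from WT ON of 0.14 (exact permutation p = 0.250).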

How the data were processed

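Pu-Seq data of 23 libraries were deposited by the authors as counts of fragment 5′ ends per strand in 300-bp bins, made from reads aligned with Bowtie2 and a custom Perl script. The genome build and the placing of reads with several equal matches are not given in the sources used here. The chromosome III ends, the genes and the lists were chosen with earlier results of these data known. Levels, Watson shares and Pol δ usage (mean over the libraries of each polymerase) were computed with Python 3.11.15, numpy 2.4.6, scipy 1.17.1 and pandas 2.3.3 and plotted with matplotlib 3.10.9. Exact permutation tests over libraries were two-sided, with Benjamini-Hochberg adjustment within each kind of comparison. Bins (41909) and bin strands (83811) were tested with edgeR 4.0.16 (quasi-likelihood, R 4.3.3), 1 fit over all 20 libraries, and with DESeq2 1.42.0 as an alternative, at adjusted p under 0.05. The scripts were tested on simulated data. Named bins are the outermost, innermost, highest and lowest of each end, those nearest the limit of 5, those of extreme usage, and the called bins with the largest changes. Alternatives were limits of 3 and 10, all libraries, Hygro-marked rpn10Δ strains only, the mean of chromosomes I and II as reference, 3-kb windows and each library left out. Added after the data were seen were the tests by segment, of the 28S-side switch and of the ends of chromosomes I and II, and the fits without KK1894 and KK1895, without the bins where the copies differ, and by deletion marker.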

Additional observations from a re-analysis of the deposited data

Results flagged for a closer look

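In the nup132Δ ON Pol ε libraries, the level of left over right repeat bins was 1.49 in KK1905 and 1.44 in each of the other 3 libraries, so that KK1905 stood apart from a group that was otherwise nearly uniform. This was 1 of 18 sets of 4 libraries and measures examined, where chance flags about 1 in 20. The whole group, together with KK1582 (1.46), stood above the other 15 libraries, which had 0.953 to 1.18. The nup132Δ OFF Pol ε library KK1520, which entered no comparison, had 48.7% of its 987 counts in repeat bins (95% Wilson interval 45.6 to 51.9%, counting error only), against 3.50 to 4.60% in the 10 Pol ε libraries that were used.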

How the results depend on the processing

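No paired analysis was possible because the labels carry no replicate numbers that tie libraries of different groups together. The deletion marker, Hygro or none, is shared by rpn10Δ ON and nup132Δ ON; with it as a block (added after the data were seen), no permutation test between them passed (exact permutation, lowest adjusted p = 0.363), no sign turned, and edgeR called 0 end bins, as without it. Signs and calls that changed are given as tested minus comparison group; in each case the cause was not tested. With a limit of 10, the non-repeat level of rpn10Δ ON minus nup132Δ ON was 0.0885 and passed (log2; exact permutation, adjusted p = 0.0449) and that of nup132Δ ON minus OFF was 0.00147; the Watson share of nup132Δ ON minus WT ON with Pol ε was -0.0109 left and 0.0269 right, and of rpn10Δ ON minus WT ON -0.00372 with Pol δ and 0.0229 with Pol ε at the right; usage of nup132Δ ON minus WT ON at the right was -0.0121 on Watson and 0.00607 on Crick. Without the bins where the copies differ, the Watson share of WT ON minus WT OFF (Pol δ, right) was 0.00784, usage of rpn10Δ ON minus nup132Δ ON on Watson -0.00751 left and 0.0232 right, and of rpn10Δ ON minus WT ON 0.0318 (Crick, left) and 0.0553 (Watson, right). With all libraries, Pol δ Watson shares of nup132Δ ON minus WT ON, rpn10Δ ON minus WT ON and WT ON minus WT OFF were 0.0264, 0.0295 and 0.00933 left and -0.0367, -0.0484 and 0.00265 right, and usage of nup132Δ ON minus WT ON at the right was -0.0115 on Watson and 0.0239 on Crick. With Hygro-marked rpn10Δ strains only, the non-repeat difference between polymerases was -0.000815 and the Watson share of rpn10Δ ON minus WT ON (Pol δ, right) -0.00123. Without KK1894 and KK1895, Pol ε Watson shares of rpn10Δ ON were -0.0214 left and 0.0525 right against WT ON and -0.0303 left and 0.0533 right against nup132Δ ON, and Crick usage against nup132Δ ON -0.0322 left and 0.00461 right. Against the mean of chromosomes I and II, the non-repeat difference between polymerases was 0.191 and passed.

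Counts of called end bins and bin strands moved as follows. DESeq2 called 9 bins for rpn10Δ ON against WT ON (edgeR 3), and 22 and 102 bin strands for the nup132Δ and rpn10Δ interactions (edgeR 0 each). In 3-kb windows edgeR called 6 for rpn10Δ ON against WT ON, 1 against nup132Δ ON, 19 between polymerases and 42 per strand (154 and 403 in 300-bp bins), from fewer features. The share of all windows called is not given, so these counts do not set the ends against the genome. With all libraries the rpn10Δ interaction had 11, or 2.36% of the end bin strands, against 5.39% of all bin strands. With only the Hygro-marked rpn10Δ strains, and nup132Δ strains of both markers, there were 1 (nup132Δ ON against WT ON), 13 (rpn10Δ ON against WT ON) and 11 (rpn10Δ ON against nup132Δ ON) bins. These were 0.427%, 5.56% and 4.7% of the end bins, against 0.804%, 7.04% and 8.11% of all bins. The interactions had 78 and 235 bin strands, or 16.7% and 50.3% of those of the ends, against 14.2% and 49.1% of all. With only the Hygro-marked deletions of both strains there were 4, 32 and 7 bins for the same comparisons. These were 1.71%, 13.7% and 2.99% of the end bins, against 2.56%, 13.2% and 3.33% of all bins. For nup132Δ ON against OFF with Pol δ there was 1 bin (0.427%, against 0.475% of all). The interactions had 228 and 292 bin strands, or 48.8% and 62.5% of those of the ends, against 43.8% and 59.3% of all. With only the unmarked ones there were 2 bins for nup132Δ ON against WT ON (0.855% of the end bins, against 2.08% of all). The nup132Δ interaction had 2 bin strands (0.427% of those of the ends, against 1.85% of all). The unmarked rpn10Δ strains have 1 library of each polymerase, so no count of bins is given for them. Without KK1894 and KK1895 there were 0 bins for rpn10Δ ON against WT ON and 62 bin strands for nup132Δ.

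Leaving out 1 library at a time, 0 to 72 bin strands were called for the nup132Δ interaction (72 without KK1582, where 12.3% of all were called). The rpn10Δ interaction had 0 to 224 (224 without KK1582, where 46.4% of all were called, and 52 without KK1524). For rpn10Δ ON against WT ON, 1 to 19 bins were called. There were 19 without KK1868 (8.12% of the end bins, against 6.59% of all), 12 without KK1582, and 1 without KK1894 or KK1895 (0.911% and 0.931% of all). For rpn10Δ ON against nup132Δ ON, 0 to 7 were called (7 without KK1582). The share of all features is not given for the counts of 52, 12 and 7. Signs turned within these ranges: repeat level WT ON minus WT OFF -0.0250 to 0.0878, non-repeat level nup132Δ ON minus OFF -0.0231 to 0.00214 and rpn10Δ ON minus nup132Δ ON -0.00334 to 0.0831; Watson share nup132Δ ON minus WT ON with Pol ε -0.000607 to 0.0252 left and -0.0204 to 0.0146 right, rpn10Δ ON minus WT ON with Pol δ -0.00391 to 0.00953 right, and rpn10Δ ON minus nup132Δ ON with Pol δ -0.0106 to 0.0120 left; usage nup132Δ ON minus WT ON at the right -0.0128 to 0.0304 on Watson and -0.0191 to 0.0102 on Crick, rpn10Δ ON minus WT ON -0.0525 to 0.00711 (Crick, left) and -0.0274 to 9.03e-05 (Watson, right), and rpn10Δ ON minus nup132Δ ON -0.00798 to 0.0219 (Watson, left). The higher repeat level in Pol δ libraries kept its sign and call throughout. Comparisons with WT are limited by its 1 or 2 libraries of each polymerase, and nup132Δ OFF had no usable Pol ε library.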
